A study of Mus musculus with 10 samples.

Results

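Immediate early transcription factors are nuclear proteins whose genes are switched on within minutes of a stimulus. The 10 genes examined here were *Fos*, *Fosb* and *Fosl2* of the FOS family, *Jun*, *Junb* and *Jund* of the JUN family, and *Atf3*, *Egr1*, *Ier2* and *Nr4a1*. They were taken by symbol from the authors' table of DESeq2-normalized counts, in which all 10 were found among 49568 genes. All 10 passed the minimum mean normalized count of 10 that left 14870 genes for testing. The samples were reactive cholangiocytes, that is, bile duct epithelium expanding in an injured liver, from 5 *Smad4del* mice and 5 *Ctl* mice. *Smad4del* mice carry *Alb-Cre* and are labelled *Smad4fl/fl*. *Alb-Cre* is driven by the albumin promoter and so acts in liver epithelium, both hepatocytes and bile duct cells. *Ctl* mice are labelled *Smad4wt/wt*, and the study's methods describe them as lacking *Alb-Cre*, so that an effect of Cre itself cannot be told apart from that of the deletion. Whether they carried floxed alleles is not settled by the sources used here. Every mouse, *Ctl* mice included, had received 0.1% DDC in the diet for 2 weeks, which injures bile ducts through porphyrin plugs. The mice were of mixed background, with littermates where possible. The sources used here give no age, sex, litter or batch. Livers were perfused, minced and digested with enzymes at body temperature, and cells positive for EPCAM, negative for CD45 and TER119 and judged alive by a dye were sorted. RNA was then amplified and sequenced, and mice are named by their numbers in the labels.

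FOS and JUN proteins bind DNA as the dimer AP-1. JUN proteins can pair with themselves or with FOS proteins, whereas FOS proteins need a JUN partner. ATF3 is a related bZIP protein, EGR1 is a zinc finger factor, NR4A1 is an orphan nuclear receptor and IER2 is a small nuclear protein. Most of these genes are induced through MAP kinases, which act on serum response factor (SRF) and CREB already bound to the promoters, and the transcripts decay quickly. SMAD4, the shared partner of the SMADs of TGFβ and BMP signaling, cooperates with AP-1 at many genes, *Junb* is induced by TGFβ in several cell types, and human ATF3 was described as a partner of SMAD3. The same genes also respond to tissue dissociation. RNA made in the liver and RNA made during digestion and sorting cannot be told apart here, as every mouse went through both.

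The promoters of these genes are shown because the induction described above acts on them. RefSeq windows on GRCm38.p6 were matched for 8 of the 10 genes, and 5 are printed as the 150 bases before the annotated start, read 5′ to 3′ on the strand of the gene. *Fosb* (chr7:19310046-19310195, minus strand), *Junb* (chr8:84978749-84978898, minus strand) and *Nr4a1* (chr15:101266696-101266845, plus strand) were the 3 genes of the 10 with an unadjusted p below 0.05 between the cohorts, and *Fos* (chr12:85473740-85473889, plus strand) and *Atf3* (chr1:191183334-191183483, minus strand) were the most abundant per kilobase. Capitals mark TGACG, the half-site of the CREB and ATF element, or its complement CGTCA, and the EGR site GCGNGGGCG on either strand.
Fosb: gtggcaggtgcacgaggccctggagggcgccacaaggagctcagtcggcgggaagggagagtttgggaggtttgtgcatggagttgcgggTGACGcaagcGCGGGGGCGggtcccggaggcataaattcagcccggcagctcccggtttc
Junb: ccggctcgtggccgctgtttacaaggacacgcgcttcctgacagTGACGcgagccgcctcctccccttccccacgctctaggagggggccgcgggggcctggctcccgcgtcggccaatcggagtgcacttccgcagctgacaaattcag
Nr4a1: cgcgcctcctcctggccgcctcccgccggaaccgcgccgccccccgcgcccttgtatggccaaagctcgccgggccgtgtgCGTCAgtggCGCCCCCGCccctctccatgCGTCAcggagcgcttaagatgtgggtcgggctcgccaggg
Fos: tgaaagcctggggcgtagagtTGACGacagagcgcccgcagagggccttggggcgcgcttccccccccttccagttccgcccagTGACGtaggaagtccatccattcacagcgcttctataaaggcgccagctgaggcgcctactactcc
Atf3: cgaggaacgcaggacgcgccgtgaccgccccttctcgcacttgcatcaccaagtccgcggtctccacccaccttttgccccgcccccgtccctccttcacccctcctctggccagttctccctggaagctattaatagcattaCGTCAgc

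Motifs were searched on both strands over the 250 bases before each start in 32817 RefSeq promoters. The TGACG half-site was in the windows of 5 of the 8 genes, *Atf3*, *Fos*, *Fosb*, *Junb* and *Nr4a1*, and in 17.7% of all windows. It was chosen after the sequences had been read, and it is also part of the full element TGACGTCA. The EGR site GCGNGGGCG was in the windows of 3 of 8, *Fosb*, *Fosl2* and *Nr4a1*, and in 4.70% of all. The AP-1 site TGANTCA (6.75% of all windows), the full element TGACGTCA (1.55%), the CArG box of SRF (1.47%) and the SMAD palindrome GTCTAGAC (0.168%) were not found in these 8 windows. Serum response elements can lie further upstream than the windows reach. The windows follow RefSeq starts, and those of *Nr4a1*, *Atf3* and *Fosl2* lie inside the gene spans given below. That of *Jund* ends at base 70697738, ahead of the GENCODE start at 70698949. Any other start of these genes was not searched. On GRCm38 with GENCODE M21, *Fos* lies on chr12:85473890-85477273, *Fosb* on chr7:19302696-19310051, *Fosl2* on chr5:32135801-32157842, *Nr4a1* on chr15:101254269-101274795 and *Ier2* on chr8:84661331-84662852. *Jun* (chr4:95049034-95052222) and *Jund* (chr8:70698949-70700616) overlap the annotated genes *Junos* and *Gm11175*, *Junb* (chr8:84974484-84978718) overlaps *Prdx2*, and *Atf3* (chr1:191170296-191218039) overlaps *Gm24748*. The sources used here give neither a strand setting nor a rule for reads that fall in 2 genes. Whether such reads were counted for these genes, for their partners or for neither is therefore not known, and the levels and ratios below carry that limit.

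Depth on genes was 16734672 to 19710560 reads in *Smad4del* mice and 16249719 to 21277339 in *Ctl* mice. *Smad4*, the deleted gene, had 877 ± 144 normalized counts in *Smad4del* cells and 3389 ± 347 in *Ctl* cells (SD, n = 5 each; limma adjusted p = 1.09e-05). A normalized count is the number of reads on a gene divided by the size factor of the mouse and is not corrected for gene length. Limma was fitted to log2(normalized count + 1) over all 14870 genes, and a gene was called where the p-value, adjusted over all of them by the Benjamini-Hochberg method, was below 0.05. It called 362 genes higher (2.43%) and 697 lower (4.69%) in *Smad4del* cells, 7.12% of the genes tested in all. With each mouse scaled to the same median the split was 626 higher and 639 lower. Of 18 cholangiocyte markers *Krt19* and *Onecut1* were called higher and *Sctr* lower, and the 18 markers summed to 709097 to 867564 normalized counts in *Smad4del* cells and 513892 to 718676 in *Ctl* cells.

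Most of the immediate early transcription factors were abundant transcripts in both cohorts. Together the 10 genes took 1.29% ± 0.209 of the reads on genes in *Smad4del* cells and 1.39% ± 0.118 in *Ctl* cells (SD, n = 5 each), with ranges of 1.08 to 1.62% and, for *Ctl*, 1.23 to 1.53%. Divided by exon length in kilobases (GENCODE M21), *Fos* was highest of the 10, at a mean of 25181 normalized counts per kilobase in *Smad4del* cells and 28521 in *Ctl* cells, and it ranked between 6 and 17 in every mouse among 47206 genes with a length. *Atf3* followed with 16024 per kilobase in *Smad4del* cells and 15691 in *Ctl* cells, and *Egr1* with 13108 and, in *Ctl* cells, 14495. *Junb* had 9694 per kilobase in *Smad4del* and 12304 in *Ctl*, *Jun* 8737 in *Smad4del* and 9457 in *Ctl*, and *Ier2* 8426 in *Smad4del* and 9114 in *Ctl*. These 6 genes stood in the top 100 per kilobase in each of the 10 mice.

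The other 4 were less abundant. *Nr4a1* had 1358 normalized counts per kilobase in *Smad4del* cells and 1909 in *Ctl* cells, *Fosb* 1128 in *Smad4del* and 1525 in *Ctl*, and *Jund* 1252 in *Smad4del* and 1307 in *Ctl*. *Fosl2* was far below all of them, with 63.1 per kilobase in *Smad4del* cells and 84.2 in *Ctl* cells. Neighbours in this order mostly overlapped in their ranges over mice. In *Ctl* cells *Fos* (25492 to 31838 per kilobase) stood clear of *Atf3* (13334 to 18549), whereas in *Smad4del* cells the lowest *Fos* value, 20005, lay below the highest *Atf3* value, 20839. In both cohorts the ranges of *Atf3* and *Egr1*, *Egr1* and *Junb*, *Junb* and *Jun*, and *Jun* and *Ier2* overlapped, as did those of *Nr4a1* and *Fosb*, and of *Fosb* and *Jund*. *Nr4a1* and *Jund* overlapped in *Smad4del* cells but not in *Ctl* cells, where the lowest *Nr4a1* value was 1546 per kilobase and the highest *Jund* value 1473. A clear step separated *Ier2* from *Nr4a1*, with a lowest *Ier2* value of 7211 per kilobase and a highest *Nr4a1* value of 1706 in *Smad4del* cells, against 8211 and 2702 in *Ctl* cells.

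**Figure D1:**
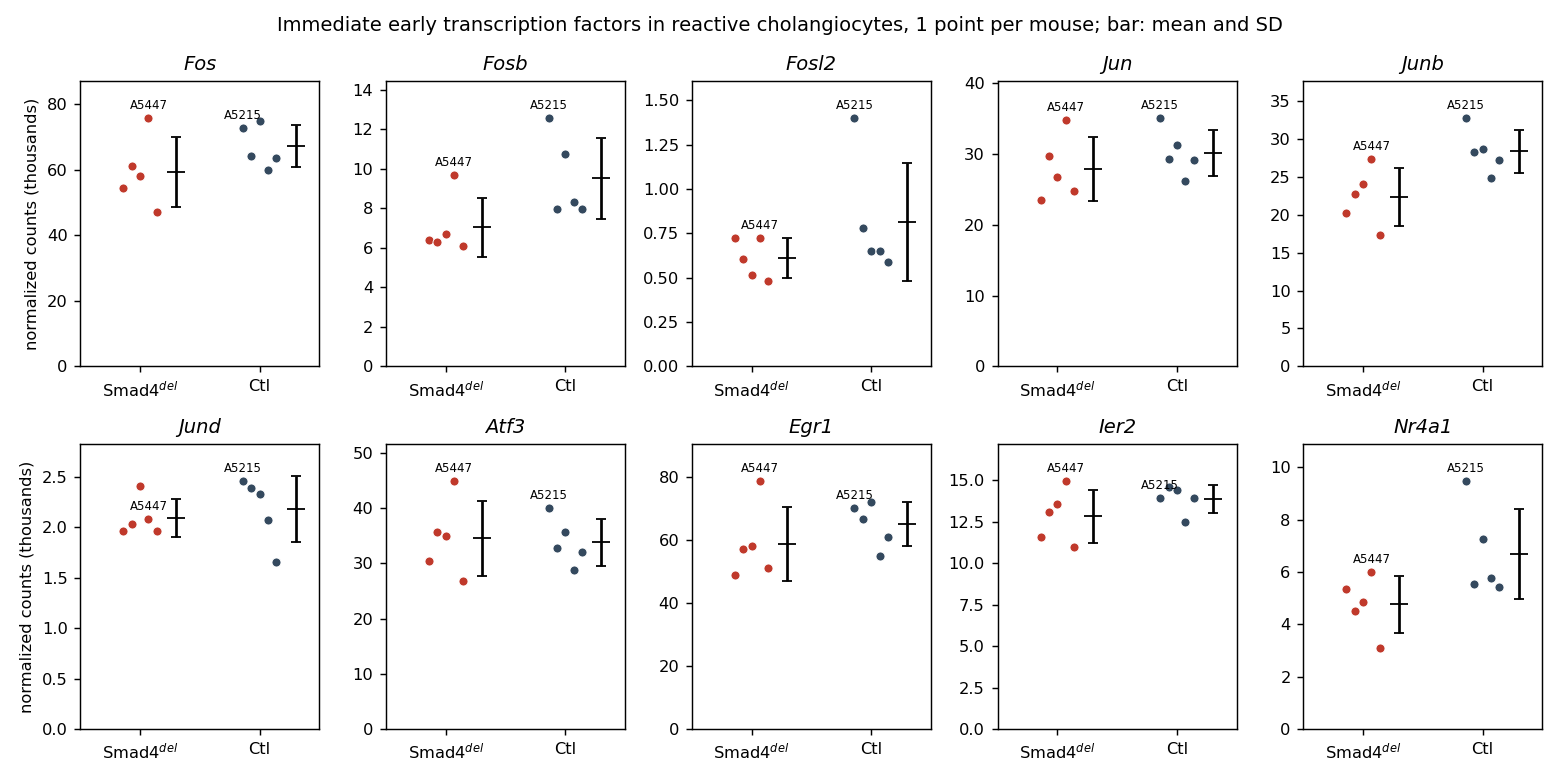
Normalized counts (vertical axes from 0) of the 10 genes, 1 point per mouse, *Smad4del* left and *Ctl* right, with the mean and SD (n = 5 each) as a bar beside the points and mice A5447 and A5215 named. The cohorts overlap in each of the 10 genes, and *Fosb*, *Junb* and *Nr4a1* have 4 of 5 *Smad4del* mice below every *Ctl* mouse.

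No gene of the 10 was called higher or lower by limma, beside 7.12% of all genes tested. At an unadjusted p below 0.05 there were 3 of 10, *Fosb*, *Junb* and *Nr4a1*, beside 27.4% of all genes. The fitted log2 fold change of *Smad4del* minus *Ctl* was below 0 in 9 of 10 and its median was -0.18, while the median over all genes tested was -0.0050. There was no gene of the 10 in which the cohorts did not overlap, beside 8.09% of all genes. In sorted but pooled cells, less RNA of a gene per cell and fewer cells that carry it cannot be told apart. Exact two-sided permutation tests are given per gene below, without adjustment over the 10 genes. Their smallest possible p for 5 mice against 5 is 0.00794.

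*Fos*, the prototype of the family, had 54312, 61151, 57956, 75660.1 and 47051 normalized counts in *Smad4del* mice A5216, A5217, A5218, A5447 and A5624, and 72778, 64262, 74882, 59956 and 63531 in *Ctl* mice A5215, A5219, A5221, A5626 and A5628. The highest and the lowest value of all were both in *Smad4del* mice, and 3 *Smad4del* mice lay below every *Ctl* mouse. The log2 fold change was -0.19 (SE 0.128, 95% interval -0.47 to 0.087, limma adjusted p = 0.350, exact permutation p = 0.175).

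*Fosb* encodes a close relative of FOS, also as a shorter splice form. In the same order of mice it had 6384, 6314, 6716, 9698 and 6108 normalized counts in *Smad4del* cells, and 12558, 7985, 10729.9, 8332 and 7989 in *Ctl* cells. All *Smad4del* mice but A5447 lay below every *Ctl* mouse. The log2 fold change was -0.43 (SE 0.159, 95% interval -0.78 to -0.085), with a limma adjusted p of 0.109 and an exact permutation p of 0.0397.

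*Fosl2* encodes FRA-2, a member of the family that lacks the strong activation domain of FOS. It had 727, 604, 515, 723 and 484 normalized counts in *Smad4del* mice, against 1399, 779.7, 652, 651 and 591 in *Ctl* mice. The cohorts overlapped, and *Ctl* mouse A5215 stood far above the other 4 *Ctl* mice. Fitted over all mice, the log2 fold change was -0.36 (SE 0.224, 95% interval -0.85 to 0.13, limma adjusted p = 0.322, exact permutation p = 0.198), and -0.14 without A5215.

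*Jun*, whose protein is the main partner of FOS, had 23481, 29637, 26706, 34781 and 24701 normalized counts in *Smad4del* mice and 35019.5, 29246.5, 31233, 26201 and 29087 in *Ctl* mice. The values overlapped over most of their range, with a log2 fold change of -0.12 (SE 0.119, 95% interval -0.38 to 0.14, limma adjusted p = 0.530, exact permutation p = 0.365).

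*Junb* encodes a JUN protein of weaker transactivating strength that can restrain proliferation. It had 20222, 22652, 24036, 27289.9 and 17332 normalized counts in *Smad4del* mice, against 32688, 28246, 28600.5, 24873 and 27155 in *Ctl* mice. Every *Smad4del* mouse was below the median of the *Ctl* mice and 4 of 5 were below all of them, with A5447 again the one that overlapped. The means were 22307 ± 3776 in *Smad4del* cells and 28313 ± 2846 in *Ctl* cells (SD, n = 5 each). The log2 fold change was -0.36 (SE 0.122, 95% interval -0.62 to -0.088), a fold of 0.782, with a limma adjusted p of 0.0931 and an exact permutation p of 0.0238.

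*Jund*, the member of its family that is expressed in many resting tissues, had 1957, 2036, 2409, 2079 and 1965 normalized counts in *Smad4del* mice and 2457, 2387, 2331, 2073 and 1655 in *Ctl* mice. The lowest and the highest value were both in *Ctl* mice. Its log2 fold change was -0.052 (SE 0.115, 95% interval -0.30 to 0.20, limma adjusted p = 0.804, exact permutation p = 0.706).

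*Atf3*, a stress-induced factor that often represses its targets, had 30381, 35581, 34964, 44888 and 26762 normalized counts in *Smad4del* mice, against 39955, 32708, 35638, 28722 and 31971 in *Ctl* mice. It was the one gene of the 10 with a fitted value above 0, a log2 fold change of 0.017 (SE 0.138, 95% interval -0.28 to 0.32, limma adjusted p = 0.954, exact permutation p = 0.905). Its sign depended on single mice, as the value was -0.083 without A5447.

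*Egr1*, a zinc finger factor induced through SRF, had 48832, 57255, 58058, 78719 and 51016 normalized counts in *Smad4del* mice and 70195, 66616, 72152, 54948 and 61069 in *Ctl* mice. As for *Fos*, *Smad4del* mice held both ends of the range. The log2 fold change was -0.16 (SE 0.136, 95% interval -0.46 to 0.14, limma adjusted p = 0.471, exact permutation p = 0.270), and it was above 0 (0.018) after quantile normalization.

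*Ier2*, the least variable of the genes among *Ctl* mice, had 11568, 13093, 13536, 14954 and 10975 normalized counts in *Smad4del* mice, against 13955, 14585, 14405, 12498 and 13918 in *Ctl* mice. Its log2 fold change was -0.12 (SE 0.0934, 95% interval -0.32 to 0.084, limma adjusted p = 0.426, exact permutation p = 0.222). The coefficient of variation was 12.4% in *Smad4del* mice and 5.91% in *Ctl* mice.

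*Nr4a1*, the nuclear receptor also called NUR77, had the lowest fitted value. It had 5338, 4525, 4876, 5986 and 3094 normalized counts in *Smad4del* mice, against 9482, 5555, 7264, 5764 and 5425 in *Ctl* mice. Mouse A5447 was the one *Smad4del* mouse not below every *Ctl* mouse, and A5624 was the lowest of all. The means were 4764 ± 1082 in *Smad4del* cells and 6698 ± 1723 in *Ctl* cells (SD, n = 5 each). The log2 fold change was -0.49 (SE 0.192, 95% interval -0.91 to -0.073), with a limma adjusted p of 0.128 and an exact permutation p of 0.0476.

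**Figure D2:**
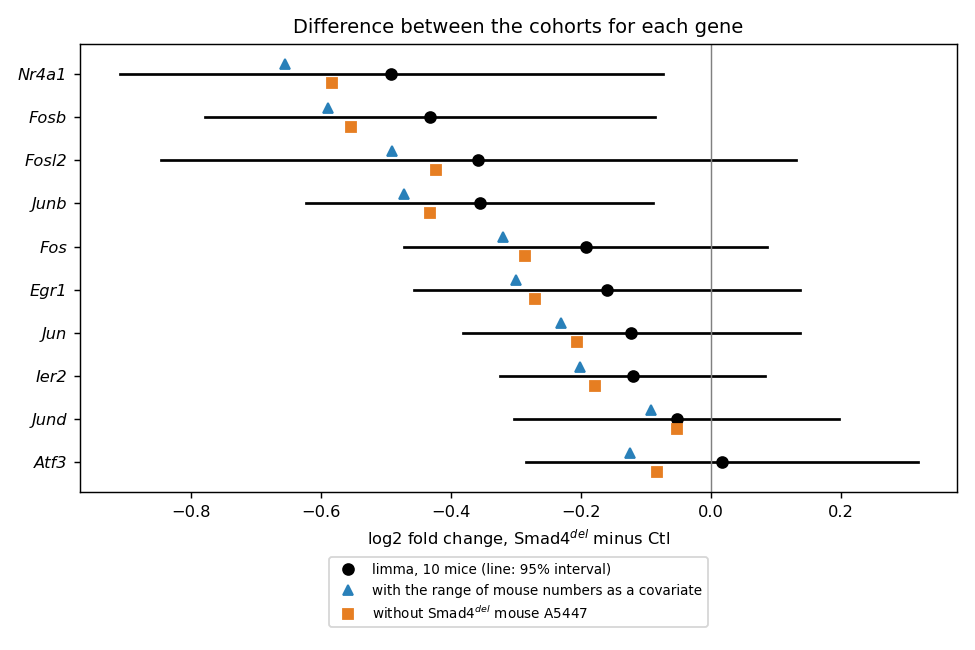
Log2 fold change, *Smad4del* minus *Ctl* (horizontal axis), of the 10 genes by limma over 10 mice (circles, with 95% intervals as lines), with the range of mouse numbers as a covariate (triangles) and without *Smad4del* mouse A5447 (squares). The intervals of *Nr4a1*, *Fosb* and *Junb* lie below 0 before adjustment over all genes, and with either change the value of *Atf3* is below 0.

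Which of these genes were called depended on the model. The mouse numbers fall into 3 ranges, A5215 to A5221 with 3 mice of each cohort, A5447 alone, and A5624 to A5628 with 1 *Smad4del* and 2 *Ctl* mice. The sources used here do not say what the ranges stand for. With the range as a covariate limma called 3 of the 10 lower, beside 4.83% of all genes: *Fosb* (log2 fold change -0.59, adjusted p = 0.0271), *Junb* (-0.47, 0.0181) and *Nr4a1* (-0.65, 0.0302). A5447 is the sole mouse of its range and adds nothing to that fit. Leaving it out of the fit without covariates gave 2 lower calls, beside 5.65% of all genes, *Fosb* (-0.55, limma adjusted p = 0.0338) and *Junb* (-0.43, 0.0410). Within mice A5215 to A5221 alone the limma values were -0.66 for *Fosb* (adjusted p = 0.0857), -0.42 for *Junb* (0.101) and -0.57 for *Nr4a1* (0.142).

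The count tests on reads recovered from the values gave similar sizes. DESeq2 called *Junb* lower, beside 8.72% of all genes (log2 fold change -0.34, adjusted p = 0.0429), and no other gene of the 10. Without *Smad4del* mouse A5217 its adjusted p for *Junb* was 0.0900. EdgeR called 0 of 10 (*Junb* -0.33, adjusted p = 0.109). Over 26 alternative settings the log2 fold change ran from -0.66 to -0.33 for *Fosb*, from -0.47 to -0.27 for *Junb* and from -0.65 to -0.34 for *Nr4a1*, below 0 in each setting, and these genes were called in 2, 3 and 1 of the 26.

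The genes varied together over the mice. Among *Smad4del* mice A5447 was highest for 8 of the 10 genes, the highest of all mice for 4 of these, and A5624 was lowest for 7, each time the lowest of all mice. Among *Ctl* mice A5215 was highest for 7 and the highest of all mice for 6, while A5626 was lowest for 6. The Pearson correlation of log2 levels was above 0 for all 45 pairs, with a median of 0.736 over the 10 mice (0.346 to 0.931) and of 0.784 (0.224 to 0.974) after the mean of each cohort was subtracted. *Jun* and *Egr1* were the closest pair over the 10 mice at 0.931. Pairs with *Jund* were looser, between 0.317 and 0.462 within cohorts, and pairs with *Fosl2* lay between 0.224 and 0.781. The points share a library and a size factor per mouse, so these values are descriptions.

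**Figure D3:**
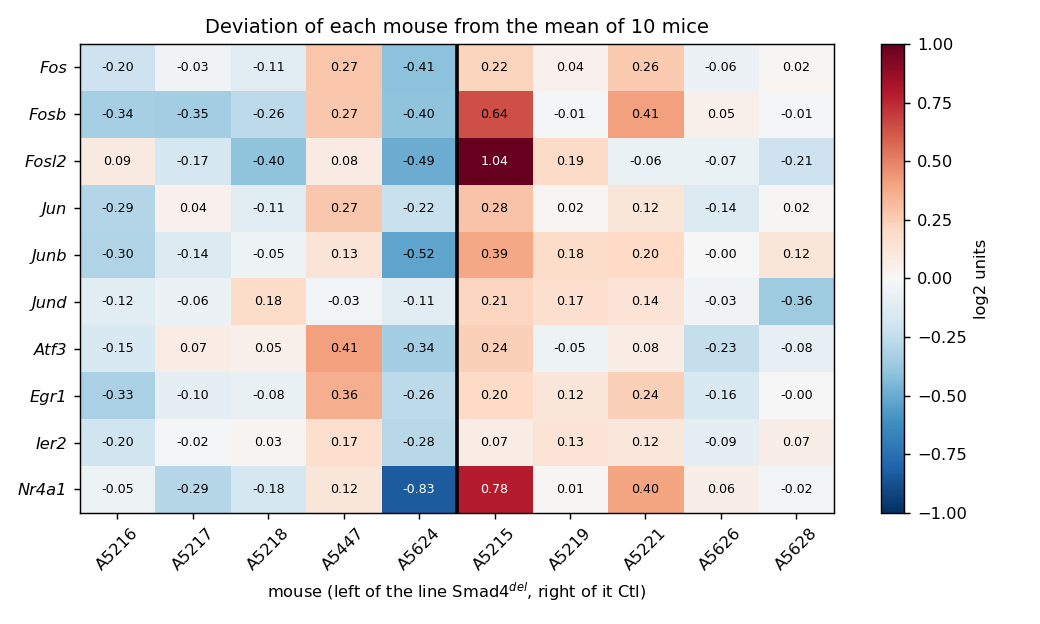
Deviation of each mouse (columns, *Smad4del* left of the line, *Ctl* right) from the mean of the 10 mice for each gene (rows), in log2 units, red above and blue below the mean. A5447 and A5215 are red and A5624 is blue in most rows, and the largest deviation is that of *Fosl2* in A5215, 1.04.

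Ratios within a mouse do not depend on its size factor and set one gene against another of its family. The log2 ratio of *Junb* to *Jund* was 3.40 ± 0.21 in *Smad4del* cells and 3.71 ± 0.20 in *Ctl* cells (SD, n = 5 each), a difference of -0.30. The exact permutation p was 0.0476, and 0.143 after adjustment over the 3 ratios. By mouse it was 3.37, 3.48, 3.32, 3.71 and 3.14 in *Smad4del* cells, against 3.73, 3.57, 3.62, 3.58 and 4.04 in *Ctl* cells, and the cohorts overlapped through A5447. The ratio of *Jun* to *Jund* averaged 3.73 in *Smad4del* cells and 3.80 in *Ctl* cells (difference -0.070, exact permutation p = 0.603). That of *Fos* to *Fosl2* averaged 6.60 in *Smad4del* cells and 6.44 in *Ctl* cells (difference 0.17, exact permutation p = 0.548).

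Among 12532 genes with a mean of at least 50, those outside the 10 whose log2 level was most like the mean standardized level of the 10 included *Dusp5* (Pearson r = 0.981 over 10 mice), *Ifrd1* (0.956), *Mafk* (0.945) and *Csrnp1* (0.933). DUSP5 is a nuclear phosphatase of ERK and MAFK is a small MAF protein. None of these 4 was called by limma (adjusted p = 0.380, 0.141, 0.491 and 0.289). *Dusp5* had 3358 ± 968 normalized counts in *Smad4del* cells and 3956 ± 802 in *Ctl* cells (SD, n = 5 each), a log2 fold change of -0.26.

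Genes of the same response were read from lists. Of 42 other immediate early and primary response genes, 8 were called lower and 0 higher in *Smad4del* cells, beside 4.69% of all genes called lower, with a median log2 fold change of -0.40 and 40 of 42 below 0. *Klf2*, a Krüppel-like factor prominent in endothelium, had 1025 ± 130 normalized counts in *Smad4del* cells and 2294 ± 828 in *Ctl* cells (SD, n = 5 each; log2 fold change -1.10, limma adjusted p = 0.00970). *Ptgs2*, the inducible cyclooxygenase, had 121 ± 28.3 in *Smad4del* and 354 ± 137 in *Ctl* (-1.48, 0.0106). *Cebpd*, a C/EBP factor of the acute phase, had 650.3 ± 56.5 in *Smad4del* and 1431 ± 590.3 in *Ctl* (-1.05, 0.0204). *Gadd45a*, a stress-induced growth arrest gene, had 491 ± 39.5 in *Smad4del* and 659 ± 9.82 in *Ctl* (-0.43, 0.0236). The cohorts did not overlap in any of these 4 genes, which were named for their small p, beside 8.09% of all genes tested. The other 4 were *Gadd45g*, *Klf4*, *Tnfaip3* and *Ier5l*. DESeq2 called 15 of the 42 lower, beside 8.72% of all genes, and edgeR 6, beside 598 genes lower in all. By limma the count was 17 without A5447, beside 5.65% of all genes. It was 4 without A5217, 3 without A5218 or A5624 and 2 without A5221. Over all genes limma called 329 lower without A5217, 364 without A5218, 508 without A5624 and 381 without A5221, against 697 with all mice.

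Among feedback inhibitors of the pathway 14 of 18 fold changes were below 0. The calls of this list and of those for SRF and bZIP partners stand beside 4.69% of all genes called lower. Of the 18, 2 were called lower and 0 higher, *Spry4*, a Sprouty inhibitor of receptor signaling (log2 fold change -0.99, limma adjusted p = 0.0284), and *Dusp16*, a phosphatase of JNK (-0.53, 0.0382), with a list median of -0.24. Among 32 genes for SRF, its cofactors, CREB and the MAP kinases the median was -0.086. In that list *Elk3*, an ETS partner of SRF (-1.01, 0.00401), and *Map3k8*, a kinase upstream of ERK (-1.16, 0.0322), were called lower and 0 genes higher. Of 22 other bZIP partners tested, *Maf* alone was called, a share near that of all genes. *Maf* had 215 ± 58.5 normalized counts in *Smad4del* cells and 601 ± 319 in *Ctl* cells (-1.38, 0.0204), and the list median was -0.29. The counts of these 3 lists also moved when a mouse was left out, to 5 for feedback inhibitors and 4 for bZIP partners without A5447, to 3 for bZIP partners without A5216, and to 0 for both without A5217 or A5218. The feedback count was also 0 without A5221 or A5624 and 1 without A5215, A5626 or A5628, and the kinase list had 1 lower call without A5215, A5217, A5218, A5221, A5624, A5626 or A5628. Limma called 1 feedback inhibitor higher without A5216, and 1 gene of the kinase list higher without A5219, A5447 or A5628. Over all genes the lower calls ran from 329 without A5217 to 852 without A5219.

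Of 30 AP-1 targets tested, 4 were called lower and 0 higher, beside 4.69% of all genes called lower, with a median of -0.28. *Cd44*, the hyaluronan receptor, had 7009 ± 1330.3 normalized counts in *Smad4del* cells and 10068 ± 661 in *Ctl* cells (SD, n = 5 each; log2 fold change -0.54, limma adjusted p = 0.0208). *Timp1*, an inhibitor of metalloproteinases (-0.53, 0.0349), and *Tgfb1* (-1.15, 0.0417) were also lower. Without a mouse the count ran from 1, without A5217, A5218 or A5221, to 6, without A5216, and it was 2 without A5215 or A5624. Limma called 1 target higher without A5447. DESeq2 called 5 lower and 2 higher, beside 1290 genes lower and 893 higher in all. Summed over the list, the targets had 550945 to 699049 normalized counts in *Smad4del* cells and 441059 to 590532 in *Ctl* cells. The medians were 628088 in *Smad4del* and 525622 in *Ctl* and the ranges overlapped, while 22 of 30 fold changes were below 0. Such a sum weighs the most abundant genes most and does not stand for the list as a whole.

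Other stress programs were read in the same way, beside 2.43% of all genes called higher and 4.69% called lower by limma. Of 20 heat shock and chaperone genes, which tissue dissociation also induces, *Hspd1* was called higher, with 4298 ± 316 normalized counts in *Smad4del* cells and 3215 ± 381 in *Ctl* cells (SD, n = 5 each; log2 fold change 0.42, limma adjusted p = 0.0208), 0 were called lower, and the median was 0.056. *Hspd1* was not called without A5217 or A5218. The higher count was 2 without A5219 or A5447, and 1 gene was called lower without A5447. Over all genes limma called 458 higher without A5219 and 563 without A5447. DESeq2 called 4 of the 20 higher, beside 893 of 14801 genes. Of 20 targets of ATF4 and CHOP, 4 were called lower and 0 higher, namely *Nupr1* (-1.23, 0.00749), *Ddit4* (-0.64, 0.00872) and both chains of the leucine transporter, *Slc7a5* (-0.94, 0.0213) and *Slc3a2* (-0.90, 0.0369). Without A5217 or A5221 the lower count was 2. Limma called 1 of the 20 higher without A5216 or A5628, and so did DESeq2 with all mice. Of 11 genes for orphan nuclear receptors related to *Nr4a1*, 0 were called in either direction by limma, with 7 at an unadjusted p below 0.05, beside 27.4% of all genes, and a median of 0.20. Limma called 1 higher and 2 lower without A5216 and 1 higher without A5447, DESeq2 called 1 higher and 1 lower, and edgeR 0.

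The TGFβ and BMP response list, which holds direct SMAD targets, had 10 of 21 genes lower and 0 higher, beside 4.69% of all genes lower, with a median of -0.79. *Ltbp2*, a matrix protein of the latent TGFβ binding protein family (log2 fold change -2.82, limma adjusted p = 1.09e-05), *Id1* (-2.40, 2.37e-05), *Hamp*, the BMP-induced iron hormone (-6.42, 0.000111), and *Id3* (-2.11, 0.000220) led it. With a mouse left out limma called 9 to 12 genes of this list lower, while DESeq2 called 13 with all mice and edgeR 9. No difference between lists was tested.

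**Figure D4:**
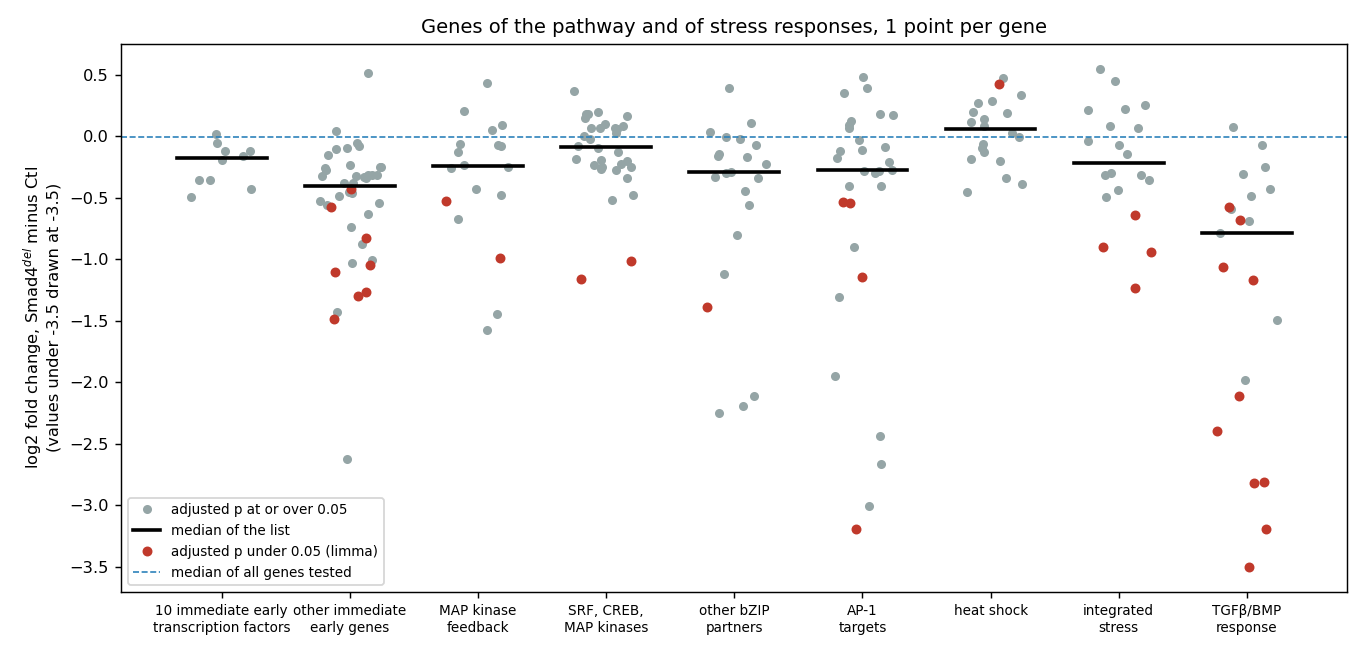
Log2 fold change, *Smad4del* minus *Ctl* (vertical axis), of each tested gene in 9 lists, 1 point per gene, red where called by limma and grey otherwise, with the list median as a black bar and the median of all tested genes as a dashed line. The 10 immediate early factors sit near -0.18 with no red point, other immediate early genes at -0.40 with 8 and TGFβ and BMP response genes at -0.79 with 10.

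Markers of several other cell types moved with the cohorts, and immediate early genes are expressed by those cells too. All 18 macrophage markers had fold changes below 0 and 0 were called by limma. At an unadjusted p below 0.05 there were 18, beside 27.4% of all genes. DESeq2 called 1 lower, beside 8.72% of all genes, and edgeR 0. Without A5216 limma called 6, beside 759 genes lower in all. The macrophage markers summed to 27140 to 110527 normalized counts in *Smad4del* cells and 39474 to 325890 in *Ctl* cells, highest in *Ctl* mouse A5215. Of 18 endothelial markers 17 were called lower, beside 4.69% of all genes, with sums of 10677 to 21728 in *Smad4del* cells and 29814 to 88381 in *Ctl* cells, again highest in A5215. With a mouse left out this count ran from 12, without A5218 or A5626, to 17. Of 12 stellate cell and fibroblast markers 2 were called lower, *Dcn* and *Acta2*, beside the same 4.69%. The sums of these 12 were 21087 to 30639 in *Smad4del* cells and 31210 to 59548 in *Ctl* cells. The 12 hepatocyte markers summed to 82063 to 123899 in *Smad4del* cells and 79741 to 109669 in *Ctl* cells. The defining markers *Ly6g* of neutrophils and *Slc4a1* of erythroid cells were at 0 in all mice. Neutrophil markers summed to 166 to 1996 in *Smad4del* cells and 259.8 to 3165 in *Ctl* cells, and erythroid markers, mainly haemoglobin genes, to 28.6 to 11387 in *Smad4del* cells and 179 to 4904 in *Ctl* cells. The part of these cells in the immediate early values was not tested. A5447, with the highest share of reads on the 10 genes (1.62%), had a macrophage sum of 29824 and an endothelial sum of 17447. A5624, with the lowest share (1.08%), had the lowest macrophage sum, 27140, and the highest endothelial sum of the *Smad4del* mice, 21728. A5215, with the highest marker sums, had a share of 1.47%. Most of the macrophage sum of A5447 was *Cd14*, whose lowest value in any *Smad4del* mouse was 20150.5 normalized counts. Without A5215 the log2 fold changes were -0.33 for *Fosb* (limma adjusted p = 0.213), -0.30 for *Junb* (0.178) and -0.36 for *Nr4a1* (0.244).

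**Figure D5:**
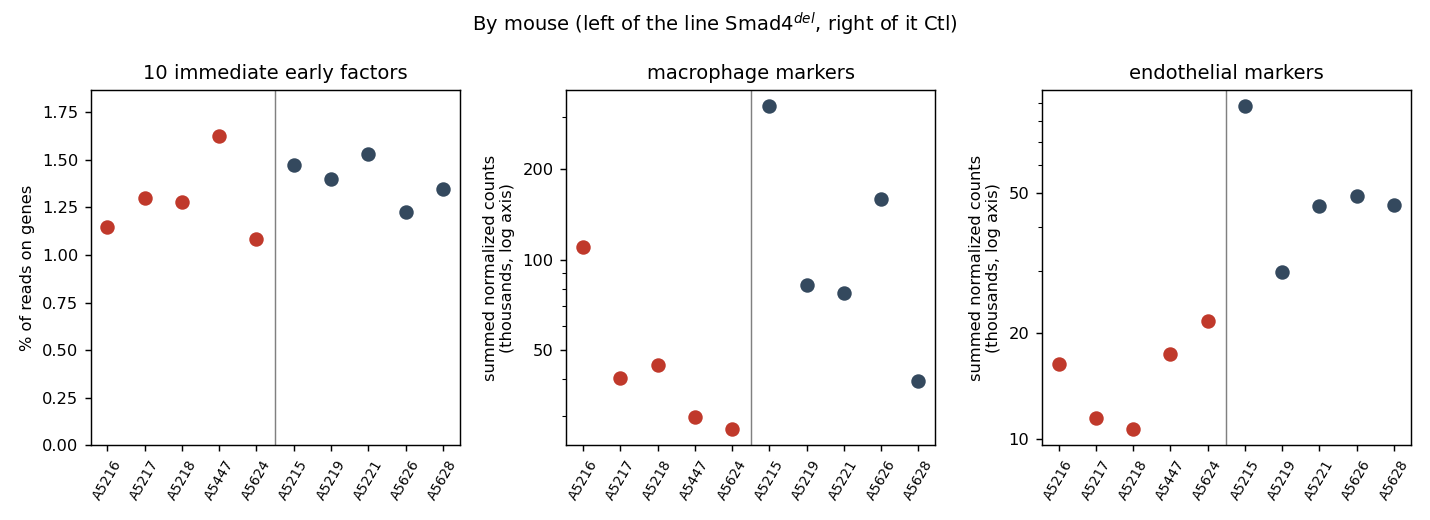
By mouse (*Smad4del* left of the line, *Ctl* right), the share of reads on genes taken by the 10 immediate early factors (axis from 0) and the summed normalized counts of macrophage and endothelial markers (log axes). A5447 has the highest share, 1.62%, with a macrophage sum of 29824 normalized counts, A5215 has the highest marker sums, and the endothelial sums of the cohorts do not overlap. Most of the macrophage sum of A5447 is *Cd14*.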

How the data were processed

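RNA-seq of reactive cholangiocytes of 5 *Smad4del* and 5 *Ctl* mice was analysed as 1 sample per mouse, grouped by the submitters' labels, which also carry a cell line tag although the cells were sorted from livers. The deposited signal values are gene counts that the authors divided by 1 DESeq2 size factor per mouse, after Trimmomatic 0.36, STAR alignment to GRCm38 and featureCounts (DESeq2 1.14.1 in R 3.3.2). The sources used here do not say whether multi-mapping reads are included. Dividing by each mouse's smallest step gave whole numbers (100% of values, relative tolerance 1e-06), taken as reads. In A5217 the step is 0.998, too close to 1 to tell recovery from rounding, so count tests were also run without that mouse.

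The 14870 genes averaging 10 or more normalized counts were tested with limma 3.58.1 in R 4.3.3 on log2(value + 1), with a trended prior, the cohort as sole term and Benjamini-Hochberg adjustment. The pseudocount shrinks fold changes of low genes. Single genes and ratios were also compared by exact two-sided permutation tests. Alternatives were a pseudocount of 0.5 or 10, a minimum mean of 50 or none, quantile, median and TMM scaling, array weights, a robust prior, mouse number range and *Xist* as covariates, mice A5215 to A5221 alone, the recovered reads in DESeq2 1.42.0 and in edgeR 4.0.16, and each mouse left out. DESeq2 without A5217 and list counts by the count tests or with a mouse left out were added after seeing the data. The fits were tested on simulated data.

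The 10 genes and all lists were chosen with earlier results of these data known. Named were the 10 genes, *Smad4*, up to 4 genes per list with the smallest p in the direction of more calls (the 2 most abundant in lists without a call), and the 5 most similar genes. Of these, not all are described, and some items are not reported here. *Gadd45g*, *Klf4*, *Tnfaip3*, *Ier5l* and *Sctr*, named without values, complete their lists' calls. P-values measure the spread between mice. Genes were matched to RefSeq promoters and GENCODE M21 by symbol.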

Additional observations from a re-analysis of the deposited data

Results flagged for a closer look

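Among 26 groups of 5 values examined (10 genes and 3 ratios in each cohort), 3 held a value far from the other 4, where chance gives about 1 in 20 groups. *Smad4del* mouse A5447 had 9698 normalized counts of *Fosb*, with the other *Smad4del* mice between 6108 and 6716. *Smad4del* mouse A5218 had 2409 of *Jund*, with the others between 1957 and 2079. *Ctl* mouse A5215 had 1399 of *Fosl2*, with the other *Ctl* mice between 591 and 779.7.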

How the results depend on the processing

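Of 260 alternative log2 fold changes of the 10 genes, 247 kept their direction and their side of the threshold, 6 became calls and 7 changed sign. The sign changes were *Egr1* after quantile normalization (0.018), *Jund* after median scaling (0.013), and *Atf3* with the number range as covariate (-0.12), within mice A5215 to A5221 (-0.10) and with a mouse left out (-0.083 to 0.10, below 0 without A5447, A5626 or A5628). The 6 calls were lower ones of *Fosb*, *Junb* and *Nr4a1* with the number range (3 genes lower), *Junb* by DESeq2 (1) and *Fosb* and *Junb* without A5447, so that leaving out a mouse gave 0 to 2 lower calls. Over all genes, higher calls numbered 209 with no filter, 579 after quantile normalization, 626 after median scaling, 12 within mice A5215 to A5221, 893 by DESeq2, 89 by edgeR without A5217 and 105 to 563 with a mouse left out. Lower calls numbered 62 within mice A5215 to A5221, 1290 by DESeq2, 265 by edgeR without A5217 and 329 to 852 with a mouse left out. The smallest and largest counts with a mouse left out came without A5217, and without A5447 (higher) or A5219 (lower). Of the lists, DESeq2 called 4 feedback inhibitors, 3 bZIP partners and 6 stellate markers lower, beside 8.72% of all genes. Called higher by DESeq2, beside 893 genes in all, were 6 cholangiocyte markers, 2 hepatocyte markers and 2 AP-1 targets. So were 1 feedback inhibitor, 1 gene of the kinase list and 1 target of ATF4 and CHOP. With a mouse left out stellate markers ranged from 1 (A5217) to 4 (A5626) lower and cholangiocyte markers from 0 (A5215, A5217, A5218 or A5626) to 3 (A5216) higher. The causes were not tested, except that mice A5215 to A5221 are 6 of 10. The intervals of the 10 genes bound their differences: the widest, of *Fosl2*, ran from -0.85 to 0.13. No paired analysis was possible because mice of the cohorts share no replicate number.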
